A study of Mus musculus with 12 samples.

Results

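The enzymes and adaptors that place, maintain, remove and read methyl groups on cytosine were followed through medulloblastoma, the tumor-bearing cerebellum and tumor-free cerebellum of the mouse. The 9 genes were Dnmt1, Dnmt3a, Dnmt3b, Uhrf1, Hells, Tet1, Tet2, Tet3 and Mbd2. They were taken by symbol from the 24091 genes of the expression table, where each symbol had 1 row. Poly(A) RNA was sequenced in 12 samples, 3 in each of 4 groups. The tumors came from mice GB344, GB359 and GB370, which were Brca2-mut;Trp53-mut, and the adjacent cerebellum was taken from the same 3 mice. The controls were cerebella of 3 Brca2-mut;Trp53-WT mice (GB361, GB508 and GB512, called Brca2 mutant controls here) and of 3 Brca2-WT;Trp53-mut mice (GB517, GB519 and GB520, called Trp53 mutant controls). In the Brca2 mutants, exons 3 and 4 of Brca2 were removed by a Cre transgene under the human GFAP promoter, which acts in the developing central nervous system. The Trp53 mutation was a global knockout, so the tumors, the adjacent cerebella and the Trp53 mutant controls lacked Trp53 in every tissue. Tumors were collected when mice reached a humane endpoint, the study describes the controls as adults matched for age, and the labels give no age for any sample. No group was wild type for both genes.

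Cytosine methylation in mammals sits mostly on CpG dinucleotides and has to be copied each time DNA is replicated. Uhrf1 binds the half-methylated DNA behind the replication fork and recruits Dnmt1, the maintenance methyltransferase, while Hells (LSH) is a chromatin remodeler that gives the methylation machinery access to nucleosomal DNA. Dnmt3a and Dnmt3b add methyl groups to unmethylated DNA, the Tet dioxygenases oxidize 5-methylcytosine as the first step of its removal, and Mbd2 binds methylated CpG and recruits the NuRD corepressor. In the cerebellum, granule cell progenitors divide in the external granule layer after birth, and they are the cells from which medulloblastomas of the Sonic hedgehog subgroup arise. Adult cerebellum consists largely of neurons that no longer divide.

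Levels are given in TPM, a measure of transcript abundance scaled to a fixed total per sample, which corrects for transcript length and library size, so that levels may be compared between genes. TPM keep no read counts, so the depth of each sample is unknown and precision rests on the spread between mice. A gene was called when limma's adjusted p was under 0.01 and the difference on the log2(TPM + 1) scale was at least 1. All 9 genes passed the filter of 1 TPM in at least 3 samples in every comparison. In bulk tissue, fewer cells of a type and less RNA per cell cannot be told apart.

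The tissue labels were checked against markers. Gabra6, a receptor subunit of mature granule neurons, was at 330.7 to 433 TPM in the adjacent cerebella and 505 to 670.4 TPM in the controls, against 8.11 to 26.9 TPM in the tumors. Atoh1, which marks granule cell progenitors, ranged from 119 to 319 TPM among tumors and did not exceed 0.212 TPM among controls, but reached 59.4 and 50.5 TPM in the adjacent cerebella of GB344 and GB359 against 5.0 TPM in that of GB370. The adjacent cerebellum of these mice thus held progenitor transcripts to different extents, and values without single samples are given where they change a result. Gene-level TPM of Brca2 and Trp53 were not lower in the mutants that lack part of them, and Trp53 was higher in the Trp53 mutant controls (47.1 to 49.4 TPM) than in the Brca2 mutant controls (33.1 to 37.2 TPM), so these levels do not check the genotypes.

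The 5 genes that were higher in the tumors lie on separate chromosomes of GRCm38.p6 in RefSeq, Uhrf1 at chr17:56303337-56323486, Hells at chr19:38930262-38970470, Dnmt1 at chr9:20907206-20959888, Dnmt3b at chr2:153649411-153687730 and Tet3 at chr6:83362373-83457208. RefSeq windows of 250 bases before to 50 after each start site (GRCm38.p6) existed for 8 of the 9 genes, 13 windows in all. They were searched on both strands for TTTCCCGC, TTTCGCGC, TTTGCCGC and TTTGGCGC, the letters of the site bound by E2F factors, which drive genes of DNA replication. The letters were found in 2.26% of all 32851 windows and 2.60% of 27025 genes, and in 3 of the 13 windows, which belong to 3 of the 8 genes, Dnmt1, Uhrf1 and Hells. Those are the maintenance methyltransferase and the 2 genes with the largest tumor difference, which is why their sequences are printed. The capitals mark the E2F letters, as read on the gene's strand, and the Dnmt1 window held a match in each orientation. The marked letters of Dnmt1 and Hells overlap an exon and untranslated region of their gene in GENCODE M21. The Uhrf1 stretch, chr17:56304063-56304312 on the plus strand, is the 250 bases before a start site. Its marked letters overlap no annotated exon of Uhrf1, and the rest of the stretch was not checked. The others are Dnmt1 at chr9:20952824-20952853 and chr9:20952574-20952603 on the minus strand, and Hells at chr19:38930917-38930946 on the plus strand.
Uhrf1: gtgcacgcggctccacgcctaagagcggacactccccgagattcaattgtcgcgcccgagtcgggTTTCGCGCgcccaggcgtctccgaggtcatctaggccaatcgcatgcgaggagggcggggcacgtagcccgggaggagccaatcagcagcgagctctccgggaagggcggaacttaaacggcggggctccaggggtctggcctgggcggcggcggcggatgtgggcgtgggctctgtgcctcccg
Dnmt1, upstream: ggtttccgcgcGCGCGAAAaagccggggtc
Dnmt1, downstream: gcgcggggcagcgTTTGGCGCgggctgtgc
Hells: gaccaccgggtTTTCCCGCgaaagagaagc

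Among genes tested between tumors and controls that had such a window, the letters were present in 8.69% of 1819 genes called higher, 4.03% of 7968 not called and 2.85% of 2670 called lower. A match of letters is a description of the window and not evidence that a factor binds there. The windows of these genes held 2 to 57 CpG, and 12 of the 13 held more than the median of 7 over all windows.

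The first question was whether the machinery differs between medulloblastoma and tumor-free cerebellum. Maintenance genes were far higher in the tumors. Of the 9 genes, 5 were called higher and 0 lower, against 14.4% of all 16241 tested genes called higher and 21.5% called lower. The 5 were Uhrf1, Hells, Dnmt3b, Dnmt1 and Tet3. All of them were called in each of the 18 alternative analyses of this comparison, and their median difference with the other 4 genes was 1.13 on the log2 scale, against -0.11 over all genes.

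Uhrf1, the reader of half-methylated DNA, was at 95.5, 107 and 114 TPM in the tumors of GB344, GB359 and GB370. It was at 1.21, 0.849 and 5.51 TPM in the Brca2 mutant controls and at 0.93, 0.949 and 1.07 TPM in the Trp53 mutant controls. The lowest tumor was thus far above the highest control, GB512. The mean was 105 ± 9.32 TPM in the tumors (SD, n = 3) and 1.75 ± 1.85 TPM in the controls (SD, n = 6), a ratio of 60.1. Without GB512 the control mean was 1.002 ± 0.14 TPM (SD, n = 5) and the ratio 105. With all controls the log2 difference was 5.45 ± 0.36 (SE, limma adjusted p = 3.42e-07).

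Hells, the remodeler, was at 22.1, 49.2 and 43.9 TPM in the tumors, at 2.04, 1.66 and 4.03 TPM in the Brca2 mutant controls and at 1.94, 2.10 and 2.65 TPM in the Trp53 mutant controls. The tumor of GB344 had less than either of the other tumors but still more than every control. The log2 difference was 3.49 ± 0.27 (SE, limma adjusted p = 9.36e-07), and the ratio of mean TPM was 16.0.

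Dnmt1 started from a much higher level in the controls, so its difference was smaller on a ratio scale. It was at 113, 121 and 144 TPM in the tumors, at 43.8, 37.1 and 50.5 TPM in the Brca2 mutant controls and at 47.9, 53.6 and 52.5 TPM in the Trp53 mutant controls, with no overlap. The means were 126 ± 15.6 TPM (SD, n = 3) and 47.6 ± 6.19 TPM (SD, n = 6), and the log2 difference was 1.39 ± 0.13 (SE, limma adjusted p = 3.12e-06). In the controls, Dnmt1 exceeded Uhrf1 in mean TPM by a wide margin. In the tumors the SDs of both overlapped, although Dnmt1 was above Uhrf1 in each tumor.

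The de novo enzymes went separate ways. Dnmt3b was at 7.74, 6.16 and 7.32 TPM in the tumors, at 1.34, 0.833 and 1.80 TPM in the Brca2 mutant controls and at 1.92, 1.90 and 1.59 TPM in the Trp53 mutant controls. The groups did not overlap, and the log2 difference was 1.67 ± 0.17 (SE, limma adjusted p = 8.29e-06). Dnmt3a was at 31.5, 43.7 and 39.8 TPM in the tumors and between 37.4 and 51.5 TPM in the controls, with a median of 44.5 TPM. Those ranges overlapped, and the log2 difference of -0.23 had a 95% interval from -0.51 to 0.04 (limma adjusted p = 0.117). Dnmt3a remained the more abundant enzyme of the pair in every sample.

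Among the Tet dioxygenases, Tet3 rose. It was at 34.4, 51.8 and 52.7 TPM in the tumors, at 21.3, 17.0 and 19.1 TPM in the Brca2 mutant controls and at 22.4, 21.5 and 21.0 TPM in the Trp53 mutant controls. All tumors were above all controls, with a log2 difference of 1.13 ± 0.14 (SE, limma adjusted p = 4.77e-05). Tet2 was at 12.9, 20.4 and 20.2 TPM in the tumors and at 11.5 to 16.7 TPM in the controls. The tumor of GB344 lay within the control range and the other two above it, and the log2 difference of 0.28 had a 95% interval from -0.09 to 0.65 (limma adjusted p = 0.158). Tet1 was at 6.96, 8.04 and 6.47 TPM in the tumors and at 6.08 to 9.21 TPM in the controls, so that no tumor left the control range. Its log2 difference was -0.10 with a 95% interval from -0.41 to 0.22 (limma adjusted p = 0.556), and it changed sign when the samples were scaled otherwise (0.01 with median-of-ratios scaling and 0.12 with quantile normalization).

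Mbd2, the reader that recruits NuRD, was the member with lower TPM in every tumor than in any control. It was at 46.0, 43.8 and 43.0 TPM in the tumors, and the controls lay between 49.4 and 63.7 TPM with a median of 57.0 TPM. The log2 difference of -0.33 ± 0.10 (SE, limma adjusted p = 0.00936) was below the fold minimum, so Mbd2 was not called.

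**Figure D1:**
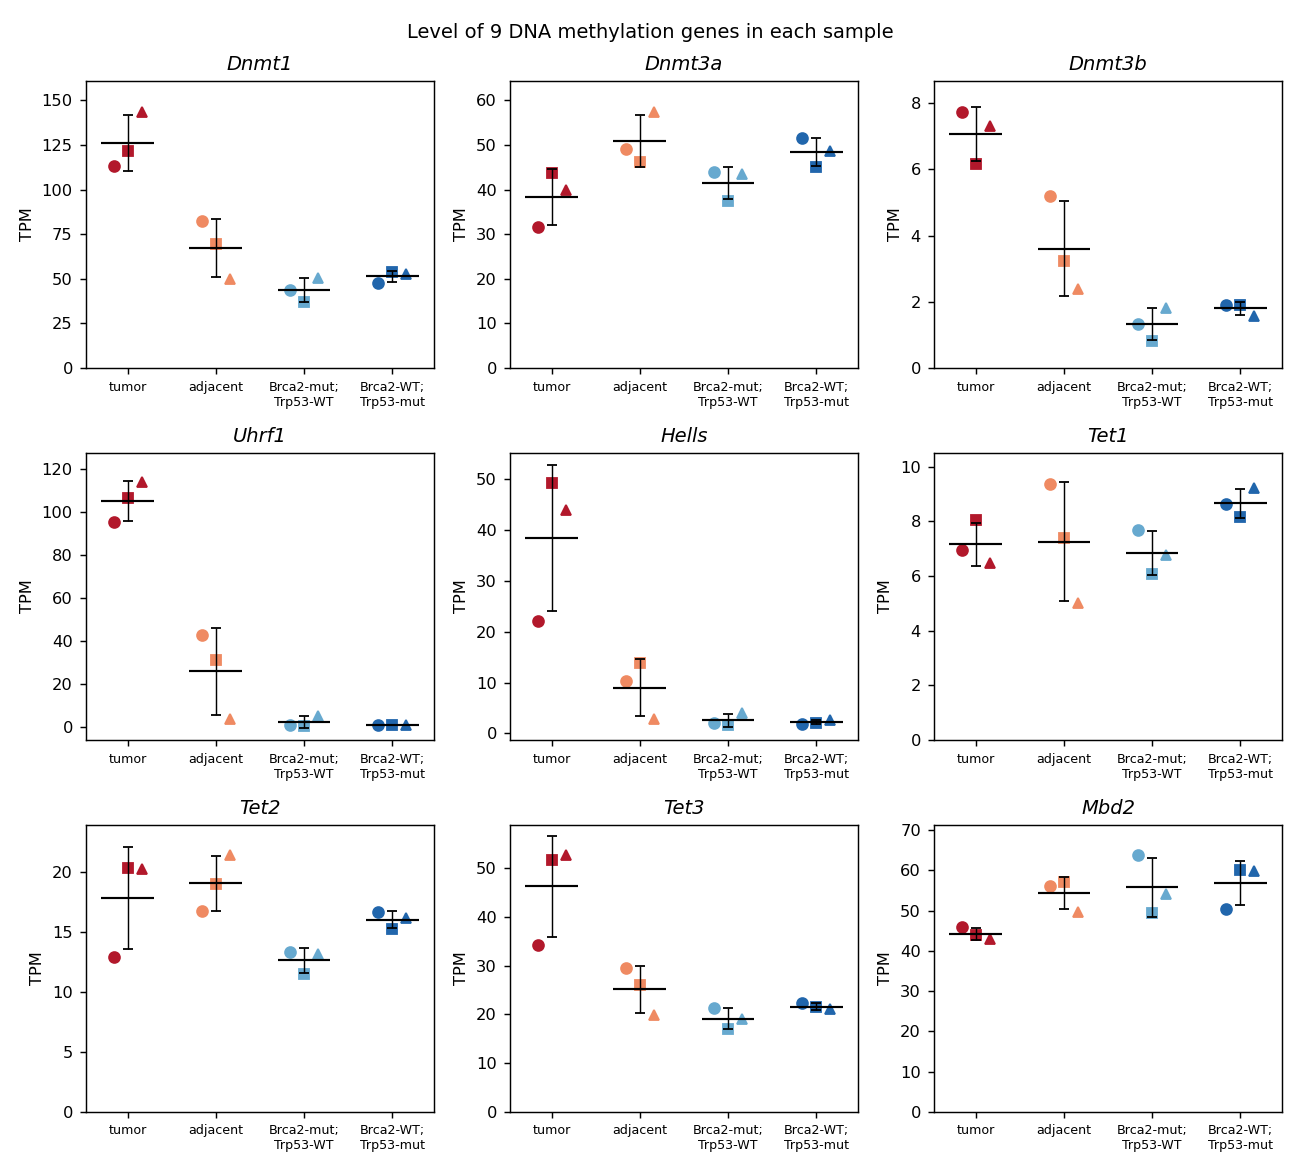
TPM (y axis, linear) of each of the 9 genes in every sample, by group (x axis). Points are single samples, circles, squares and triangles stand for the 3 mice of a group in the order of their numbers (the same shape in tumor and adjacent is the same mouse), the black line is the mean and the bar the SD (n = 3). Uhrf1 lay between 95.5 and 114 TPM in the tumors and at or below 5.51 TPM in the controls, while all 3 tumors lay within the control range for Tet1.

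The order of the 9 genes also differed between the tissues. In the controls, Mbd2 (56.3 ± 5.78 TPM), Dnmt1 (47.6 ± 6.19 TPM) and Dnmt3a (45.0 ± 4.83 TPM) led. The spreads of these neighbours between mice met, although Mbd2 was above Dnmt1 in each control. Tet3 (20.4 ± 1.97 TPM), Tet2 (14.3 ± 2.02 TPM) and Tet1 (7.76 ± 1.17 TPM) came next, each separated from the one before it by more than their SDs. Hells (2.40 ± 0.86 TPM), Uhrf1 (1.75 ± 1.85 TPM) and Dnmt3b (1.56 ± 0.42 TPM) were lowest, with overlapping SDs (SD, n = 6 for each). Within each control, however, Hells was above Dnmt3b. In the tumors, Dnmt1 (126 ± 15.6 TPM) and Uhrf1 (105 ± 9.32 TPM) led. Their SDs overlapped, with Dnmt1 above Uhrf1 in each tumor. Tet3 (46.3 ± 10.3 TPM), Mbd2 (44.3 ± 1.52 TPM), Hells (38.4 ± 14.4 TPM) and Dnmt3a (38.3 ± 6.19 TPM) followed as a group whose neighbours did not differ beyond their spread. Tet2 (17.8 ± 4.27 TPM), Tet1 (7.16 ± 0.80 TPM) and Dnmt3b (7.07 ± 0.82 TPM) were lowest (SD, n = 3 for each).

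Composition within a family can be followed without reference to any other gene, because the total of a sample cancels from a ratio of its own genes. Dnmt1 made up 74.3, 70.9 and 75.3% of the summed TPM of Dnmt1, Dnmt3a and Dnmt3b in the tumors of GB344, GB359 and GB370, against 47.3 to 53.3% in the 6 controls. The groups did not overlap, and the difference of the means was 23.0 percentage points (two-sided exact permutation p = 0.0238, 0.0357 after Benjamini-Hochberg adjustment over 6 tests). That p is the smallest that 3 against 6 samples can give. The summed TPM of the family was 172 ± 19.0 in the tumors (SD, n = 3) and 94.1 ± 10.4 in the controls (SD, n = 6).

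Dnmt3b made up 19.7, 12.4 and 15.5% of the TPM of the de novo pair in the tumors and 2.18 to 4.05% in the controls, again without overlap. The difference was 12.5 points (exact permutation p = 0.0238, adjusted p = 0.0357). Tet1 made up 12.8, 10.02 and 8.16% of the summed Tet TPM in the tumors and 17.3 to 19.8% in the controls. That difference of -7.88 points also separated the groups (exact permutation p = 0.0238, adjusted p = 0.0357), although the TPM of Tet1 itself overlapped. Tet3 is part of the sum, so a rise of Tet3 lowers the share of Tet1 without any change of Tet1. Tet3 correspondingly held 63.4 to 66.4% of the Tet TPM in the tumors and 45.3 to 50.3% in the controls, and Tet2 held 23.8 to 25.5% and 31.5 to 34.9%. The summed Tet TPM was 71.3 ± 14.8 in the tumors (SD, n = 3) and 42.5 ± 4.97 in the controls (SD, n = 6).

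**Figure D2:**
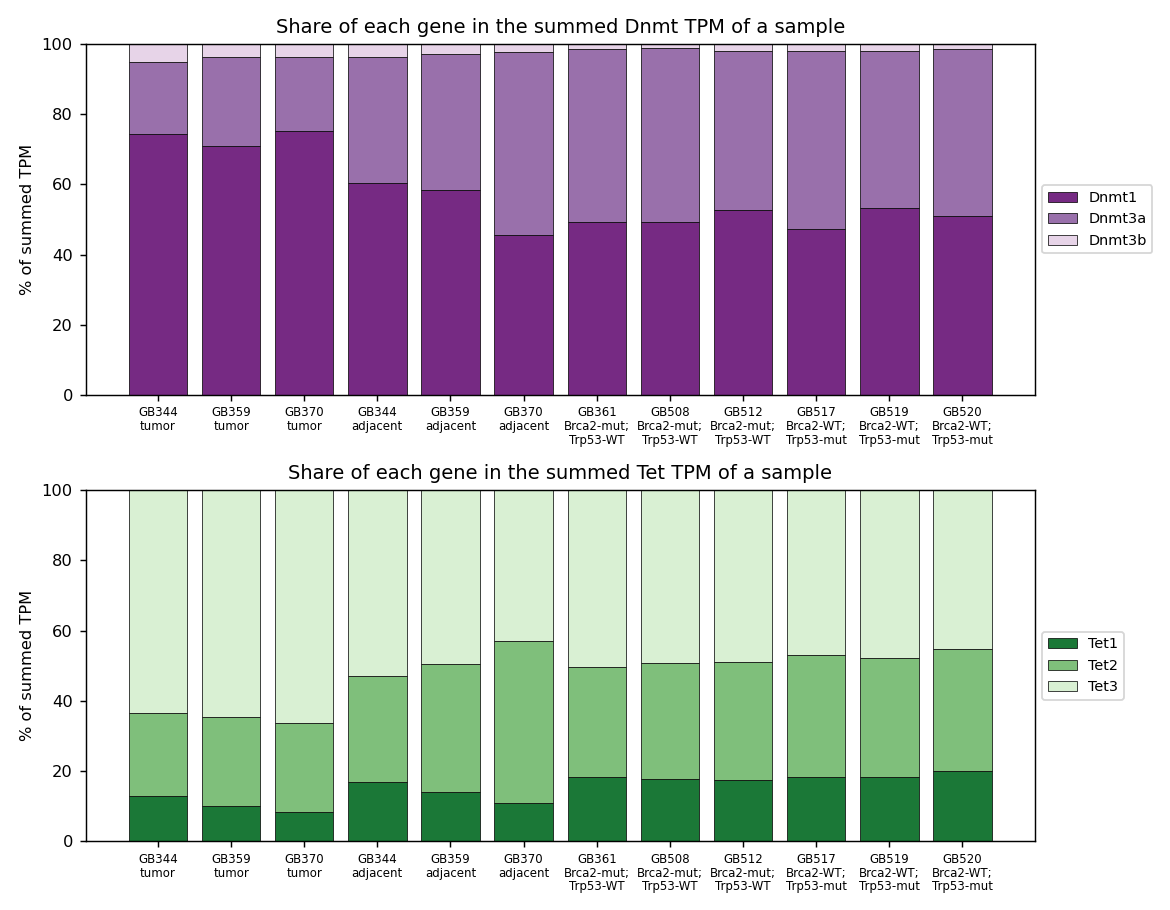
Share (y axis, percent) of each Dnmt gene in the summed Dnmt TPM (upper) and of each Tet gene in the summed Tet TPM (lower), with 1 bar for each of the 12 samples (x axis, mouse number and group). Dnmt1 filled 70.9 to 75.3% of the Dnmt bars in the tumors and 47.3 to 53.3% in the controls, and the Tet1 share averaged 10.3% in the tumors, 13.9% in the adjacent cerebella and 18.2% in the controls.

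The second question was how far the cerebellum next to a tumor resembles it. Between tumors and adjacent cerebella of the same mice, 0 of the 9 genes were called higher and 0 lower, where 4.76% of the 15845 tested genes were called higher and 18.0% lower, while 7 of the 9 had an unadjusted limma p under 0.05, as did 57.1% of all tested genes. Uhrf1, Hells, Dnmt1, Dnmt3b and Tet3 were higher in every tumor than in any adjacent cerebellum, and Dnmt3a and Mbd2 were lower. The share of all tested genes that separate in this way was not counted.

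Dnmt1 was at 82.4, 69.4 and 50.1 TPM in the adjacent cerebella of GB344, GB359 and GB370, so that the tumor of the same mouse had 1.38, 1.75 and 2.87 times as much. The log2 difference was 0.92 ± 0.20 (SE, limma adjusted p = 0.00937), below the fold minimum. Uhrf1 was at 43.1, 31.5 and 3.72 TPM in these cerebella, and the tumor to adjacent ratios were 2.22, 3.39 and 30.6. The mean log2 difference of 2.49 was larger than that of Dnmt1 but far less precise (95% interval from 0.64 to 4.34, limma adjusted p = 0.0342). Hells behaved likewise, at 10.4, 13.7 and 2.91 TPM, with ratios of 2.13, 3.58 and 15.1 and a log2 difference of 2.10 ± 0.54 (SE, limma adjusted p = 0.0166).

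Dnmt3b was at 5.20, 3.23 and 2.40 TPM in the adjacent cerebella, with a log2 difference to the tumors of 0.85 ± 0.26 (SE, limma adjusted p = 0.0301). Tet3 was at 29.5, 26.0 and 19.9 TPM, with a log2 difference of 0.85 ± 0.22 (SE, limma adjusted p = 0.0186). For each of these 5 genes the tumor to adjacent ratio was smallest in GB344 and largest in GB370. Dnmt3a, at 49.1, 46.2 and 57.4 TPM in the adjacent cerebella, gave a log2 difference of -0.41 (limma adjusted p = 0.0763), and Mbd2, at 56.1, 57.1 and 49.8 TPM, gave -0.29 (limma adjusted p = 0.0766). Tet1 (9.39, 7.39 and 5.02 TPM) and Tet2 (16.8, 19.0 and 21.4 TPM) overlapped with the tumors, with log2 differences of 0.01 (95% interval -0.56 to 0.58) and -0.11 (95% interval -0.62 to 0.40), and the latter was positive under other scalings.

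The count of 0 depended on single samples and on the scaling. Tet3 was called without the tumor of GB344, Dnmt1 without the adjacent cerebellum of GB344 and Uhrf1 without that of GB370, each as the only called member. With median-of-ratios scaling 2 members were called higher (Dnmt1 and Tet3), and with quantile normalization 4 (Dnmt1, Dnmt3b, Hells and Tet3).

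The third comparison set the adjacent cerebella against the same 6 controls, which it therefore shares with the tumor comparison. Of the 9 genes 0 were called, against 0.224% of 16091 tested genes called higher and 0.0124% lower, and 5 of the 9 had an unadjusted limma p under 0.05, as did 34.5% of all tested genes. Uhrf1 averaged 26.1 ± 20.2 TPM (SD, n = 3), with a log2 difference of 2.96 ± 0.66 (SE, limma adjusted p = 0.0220), and Hells had a log2 difference of 1.39 ± 0.37 (SE, limma adjusted p = 0.0361). Both overlapped with the controls, because the adjacent cerebellum of GB370 lay below the control GB512 for each. Without that cerebellum, Uhrf1 and Hells were called. Dnmt3b was higher in all 3 adjacent cerebella than in any control (log2 difference 0.82 ± 0.22 SE, limma adjusted p = 0.0346), and so was Tet2 (0.39 ± 0.13 SE, limma adjusted p = 0.0660), by smaller amounts. How many of all tested genes separate in this way was not counted. Dnmt1 (0.47, limma adjusted p = 0.0660), Tet3 (0.28, limma adjusted p = 0.153), Dnmt3a (0.18, limma adjusted p = 0.261), Tet1 (-0.11, limma adjusted p = 0.706) and Mbd2 (-0.05, limma adjusted p = 0.761) overlapped with the controls on the log2 scale.

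Expressed as a percentage of the distance in TPM from the control mean to the tumor of the same mouse, the adjacent cerebellum of GB344 stood at 44.1% for Uhrf1, 40.5% for Hells, 53.0% for Dnmt1, 58.8% for Dnmt3b and 65.4% for Tet3. That of GB359 stood at 28.3, 24.2, 29.5, 36.4 and 17.8% for the same genes in the same order. That of GB370 stood at 1.75, 1.21, 2.61, 14.5 and -1.41%, and it was within the control range for all but Dnmt3b. For Uhrf1 (3.72 TPM) and Hells (2.91 TPM) only the control GB512 was above it. The other controls reached at most 1.21 TPM for Uhrf1 and 2.65 TPM for Hells. Transcripts of dividing cells moved in the same way. The summed TPM of 10 proliferation genes in these adjacent cerebella stood at 39.3, 24.3 and 1.51% of the same distance, and that of 5 granule cell progenitor genes at 29.7, 21.7 and 2.26%.

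In the adjacent cerebella, Tet1 made up 16.9, 14.1 and 10.8% of the Tet TPM in GB344, GB359 and GB370, below every control (difference of means -4.28 points, exact permutation p = 0.0238, adjusted p = 0.0357). Here GB370 was the farthest from the controls, with Tet2 at 46.2% of its Tet TPM, above every other sample, and Tet3 at 43.0%. Dnmt3b made up 9.57, 6.55 and 4.01% of the de novo pair, and GB370 lay within the control range (difference 3.38 points, exact permutation p = 0.0476, adjusted p = 0.0571). Dnmt1 made up 60.3, 58.4 and 45.6% of the Dnmt TPM, with GB370 below all controls (difference 4.26 points, exact permutation p = 0.238). These differences depended on single cerebella. Without that of GB344 they were -5.74 points for Tet1, 1.95 for Dnmt3b and 1.501 for Dnmt1, without that of GB370 -2.73, 4.73 and 8.85 points, and without that of GB359 -4.36, 3.47 and 2.44 points.

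**Figure D3:**
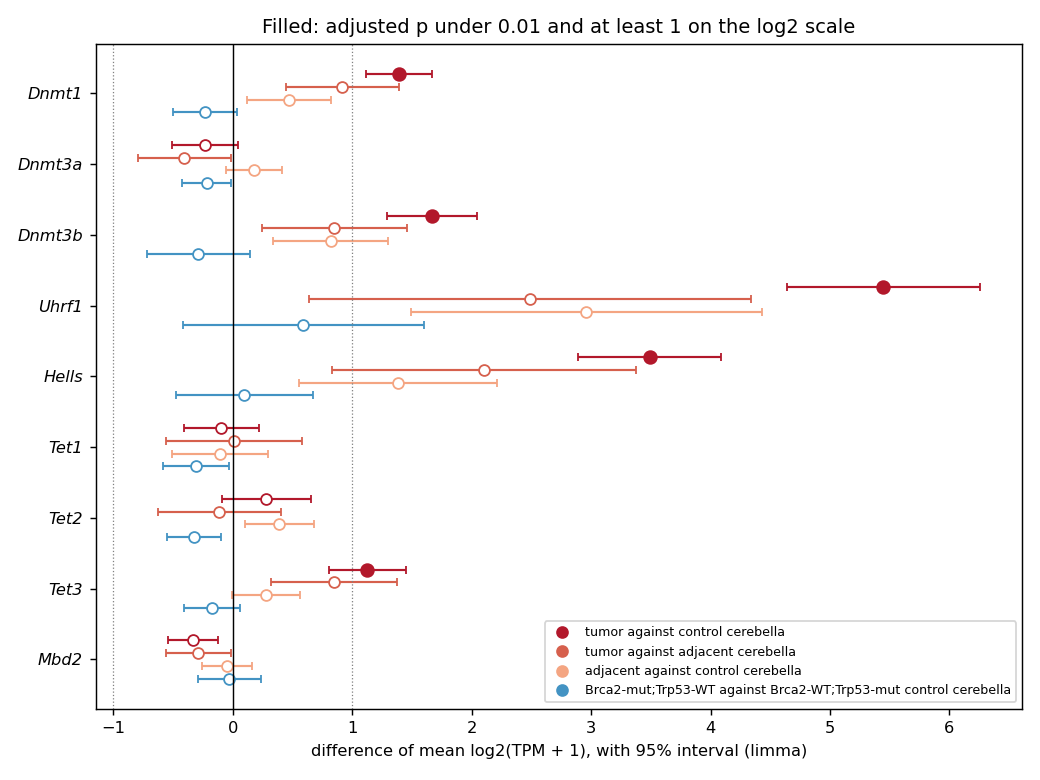
Difference of the group means on the log2(TPM + 1) scale (x axis) for each gene (y axis) in the 4 comparisons (colors), with limma's 95% interval. Filled points passed an adjusted p under 0.01 and a difference of at least 1 (dotted lines), which 5 genes did in tumors against controls and none in the other comparisons.

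Transcripts of dividing cells moved with the tumor difference. All 10 proliferation genes and all 5 progenitor genes of the marker lists were called higher in the tumors, with median log2 differences of 5.06 and 6.15. Their summed levels were 1593 to 1962 TPM and 1764 to 1956 TPM in the tumors against 115 to 196 TPM and 35.9 to 50.6 TPM in the controls. All 5 markers each of mature granule neurons, Purkinje cells and oligodendrocytes were called lower, with median log2 differences of -3.78, -5.31 and -4.64, as were 4 of 5 astrocyte markers (median -2.44). Of the 5 microglia and 5 endothelium markers, 1 was called higher and 1 lower. No marker was at 0 in all samples of a group. The part of cell composition in the tumor difference of the 9 genes was not tested. Among the controls, GB512 had the most Uhrf1 and Hells, and it also had the highest proliferation sum (196 TPM, against 115 to 130 TPM in the other 5) and the most Mki67 (5.63 TPM, against at most 0.343 TPM), while Atoh1 was at 0.0689 TPM.

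**Figure D4:**
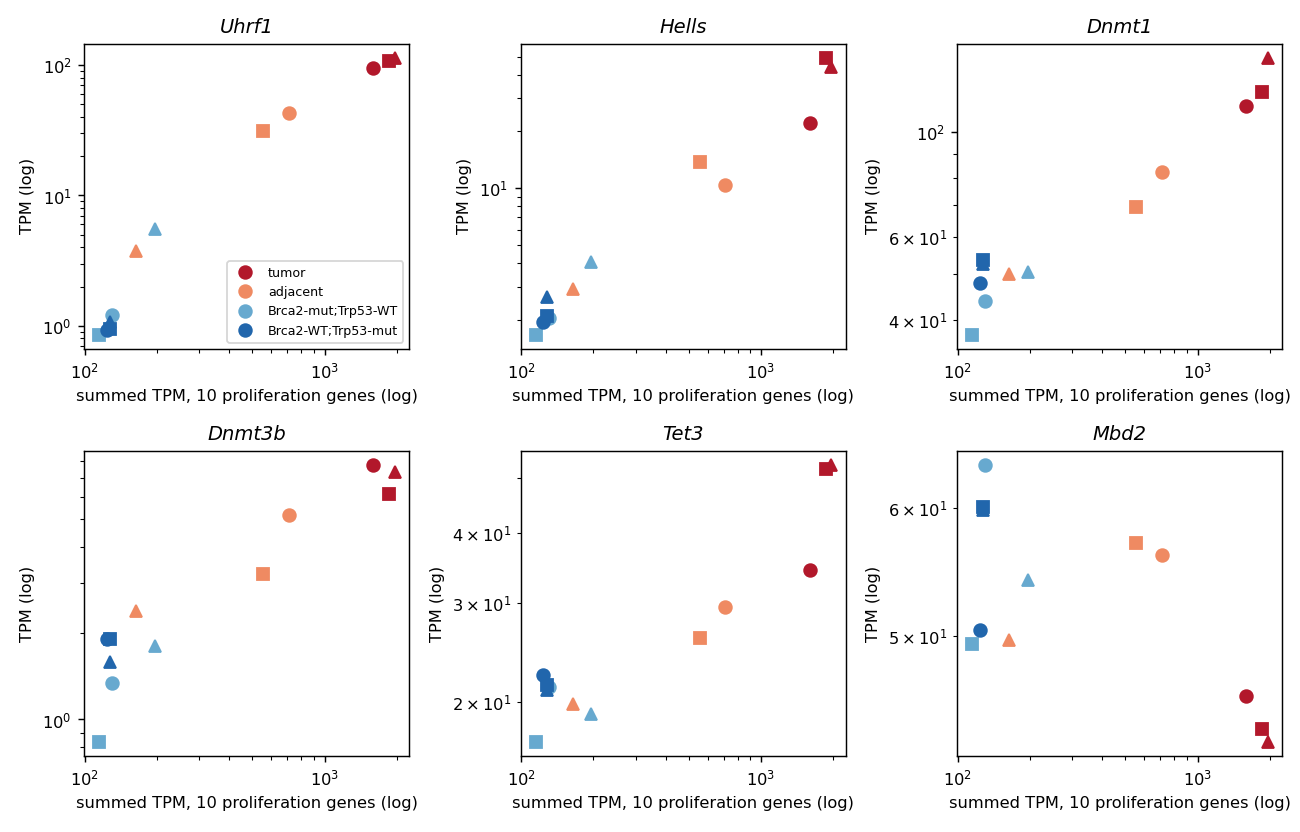
TPM of 6 of the 9 genes (y axes, log) against the summed TPM of 10 proliferation genes (x axes, log), with 1 point for each of the 12 samples, colored by group and shaped by mouse. Uhrf1 climbed with the proliferation sum across the adjacent cerebella and the control GB512 as well as the tumors, Dnmt1 and Tet3 over a narrower range, and Mbd2 was lowest in the tumors.

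The remaining comparison was between the tumor-free control genotypes. Of the 9 genes 0 were called between Brca2 mutant and Trp53 mutant controls, against 0.0128% of 15575 tested genes called higher in the Brca2 mutants and 0.0449% lower. An unadjusted limma p under 0.05 was found for 3 of the 9 and for 20.1% of all tested genes. How many of all genes separate fully between these groups was not counted. With 3 against 3 samples, full separation has a two-sided exact permutation p of 0.10. The 3 members were lower in each Brca2 mutant control than in any Trp53 mutant control. They were Tet2 (12.6 ± 1.04 against 16.0 ± 0.72 TPM, log2 difference -0.32, limma adjusted p = 0.147), Tet1 (6.84 ± 0.80 against 8.67 ± 0.53 TPM, -0.31, limma adjusted p = 0.213) and Dnmt3a (41.6 ± 3.57 against 48.4 ± 3.23 TPM, -0.22, limma adjusted p = 0.231), each as mean ± SD with n = 3. Intervals for the others were wide enough to hold differences in either direction, from -0.42 to 1.60 for Uhrf1 and from -0.48 to 0.67 for Hells. Marker sums of several cell types separated the same samples. The sum of 5 astrocyte and Bergmann glia markers was 1316 to 1528 TPM in the Brca2 mutant controls. It was 1251 to 1303 TPM in the Trp53 mutant controls, but the single markers of this list were mixed, with log2 differences from -0.20 to 0.43. In the Brca2 and the Trp53 mutant controls, the sum of 5 choroid plexus markers was 19.2 to 876 and 3960 to 5179 TPM, that of 5 Purkinje cell markers 5685 to 7034 and 4174 to 4514 TPM, and that of 5 mature granule neuron markers 1635 to 2107 and 2189 to 2293 TPM. Their part in these differences was not tested.

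The partner genes of the pathway were compared between tumors and controls by role. The share to set beside each list is that of all tested genes, 14.4% called higher and 21.5% lower. Of 9 partners of maintenance methylation 6 were called higher and 0 lower, with a median log2 difference of 2.52. The leading ones were Pclaf, a PCNA-associated factor (127 ± 31.2 TPM in tumors and 1.96 ± 2.17 TPM in controls, log2 difference 5.62 ± 0.41 SE, limma adjusted p = 6.44e-07), and Cdca7, the partner that recruits Hells to chromatin (112 ± 7.37 and 1.76 ± 2.02 TPM, 5.56 ± 0.39 SE, limma adjusted p = 4.58e-07). Cdca7l, Lig1, Pcna and Rfc1 were called as well, and Uhrf2, Usp7 and Zbtb24 were not. Several of these act in DNA replication itself, as clamp, clamp loader and ligase, and Pcna also stood in the proliferation list.

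Of 4 tested partners of de novo methylation 1 was called, Trim28, the corepressor that brings silencing to retroelements (283 ± 26.8 and 109 ± 7.93 TPM, log2 difference 1.36 ± 0.09 SE, limma adjusted p = 2.39e-07). The median of the list was 0.89. Ehmt1 (0.95), Ehmt2 (0.84) and Setdb1 (0.73) were also higher in every tumor than in any control, and missed only the fold minimum. Dnmt3l and Dppa3 averaged below 1 TPM in both groups and were not tested. Among 11 genes of removal of methylated or oxidized cytosine, 3 were called higher and 0 lower, with a median of 0.17. Tdg, the glycosylase that excises the oxidation products made by Tet enzymes, was at 141 ± 9.53 TPM in tumors and 39.6 ± 2.48 TPM in controls (log2 difference 1.81 ± 0.08 SE, limma adjusted p = 2.87e-08). Apex1, the endonuclease that acts after it in base excision repair, had a log2 difference of 2.93 ± 0.15 (SE, limma adjusted p = 5.86e-08).

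The list of readers of methylated DNA included Mbd3, Mbd5 and Mbd6, whose binding to methylated CpG is not established here. It also included Mbd4, which stood in the removal list as well. Of the 9 listed genes 0 were called higher and 2 lower, with a median of -0.05. The share called lower was near that of all genes (21.5%). Among those not called, Mbd3 (0.46), Mbd4 (0.70), Mbd6 (0.72) and Zbtb33 (0.47) were higher in every tumor than in any control and Mbd5 (-0.89) was lower, all under the fold minimum. Zbtb4 was at 9.52 ± 2.60 TPM in tumors and 78.2 ± 2.92 TPM in controls (log2 difference -2.94 ± 0.14 SE, limma adjusted p = 3.87e-08), and Zbtb38 at 6.92 ± 1.01 and 28.2 ± 2.62 TPM (-1.89 ± 0.11 SE, limma adjusted p = 1.68e-07). Both are zinc finger proteins that bind methylated CpG. The NuRD subunits, with which Mbd2 acts, were called higher in 7 of 12 cases and lower in 1, with a median of 1.08. Hdac2, a histone deacetylase of the complex, had a log2 difference of 1.78 ± 0.07 (SE, limma adjusted p = 2.47e-08), and Chd5, its neuronal remodeler, one of -2.16 ± 0.17 (SE, limma adjusted p = 1.09e-06).

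Enzymes of the methyl donor and of 2-oxoglutarate, the cofactors of the Dnmt and Tet enzymes, were mixed, with 4 of 11 called higher, 2 lower and a median of 0.11. Idh2, which makes 2-oxoglutarate in mitochondria, was at 210 ± 36.3 TPM in tumors and 49.8 ± 9.20 TPM in controls (log2 difference 2.06 ± 0.17 SE, limma adjusted p = 1.37e-06). Ahcyl2, a relative of the enzyme that clears S-adenosylhomocysteine, was at 24.7 ± 5.28 and 106 ± 7.94 TPM (-2.07 ± 0.12 SE, limma adjusted p = 1.23e-07). In tumors against adjacent cerebella, 2 of 9 maintenance partners, 0 of 4 de novo partners, 3 of 11 removal genes and 0 of 9 listed readers were called higher. So were 1 of 12 NuRD subunits and 2 of 11 cofactor enzymes, against 4.76% of all tested genes. Called lower were 2 of the listed readers, 1 NuRD subunit and 2 cofactor enzymes, against 18.0% of all tested genes. In total 13 partner genes were called. Of those named, Tdg, Apex1, Hdac2, Idh2, Pcna and Lig1 were called higher and Zbtb4, Zbtb38, Chd5 and Ahcyl2 lower, while Pclaf, Cdca7, Trim28, Cdca7l and Rfc1 were not called. With the mouse as a block 15 partners were called, 12 of them shared. Lig1 (limma adjusted p = 0.0157) was then not called.

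**Figure D5:**
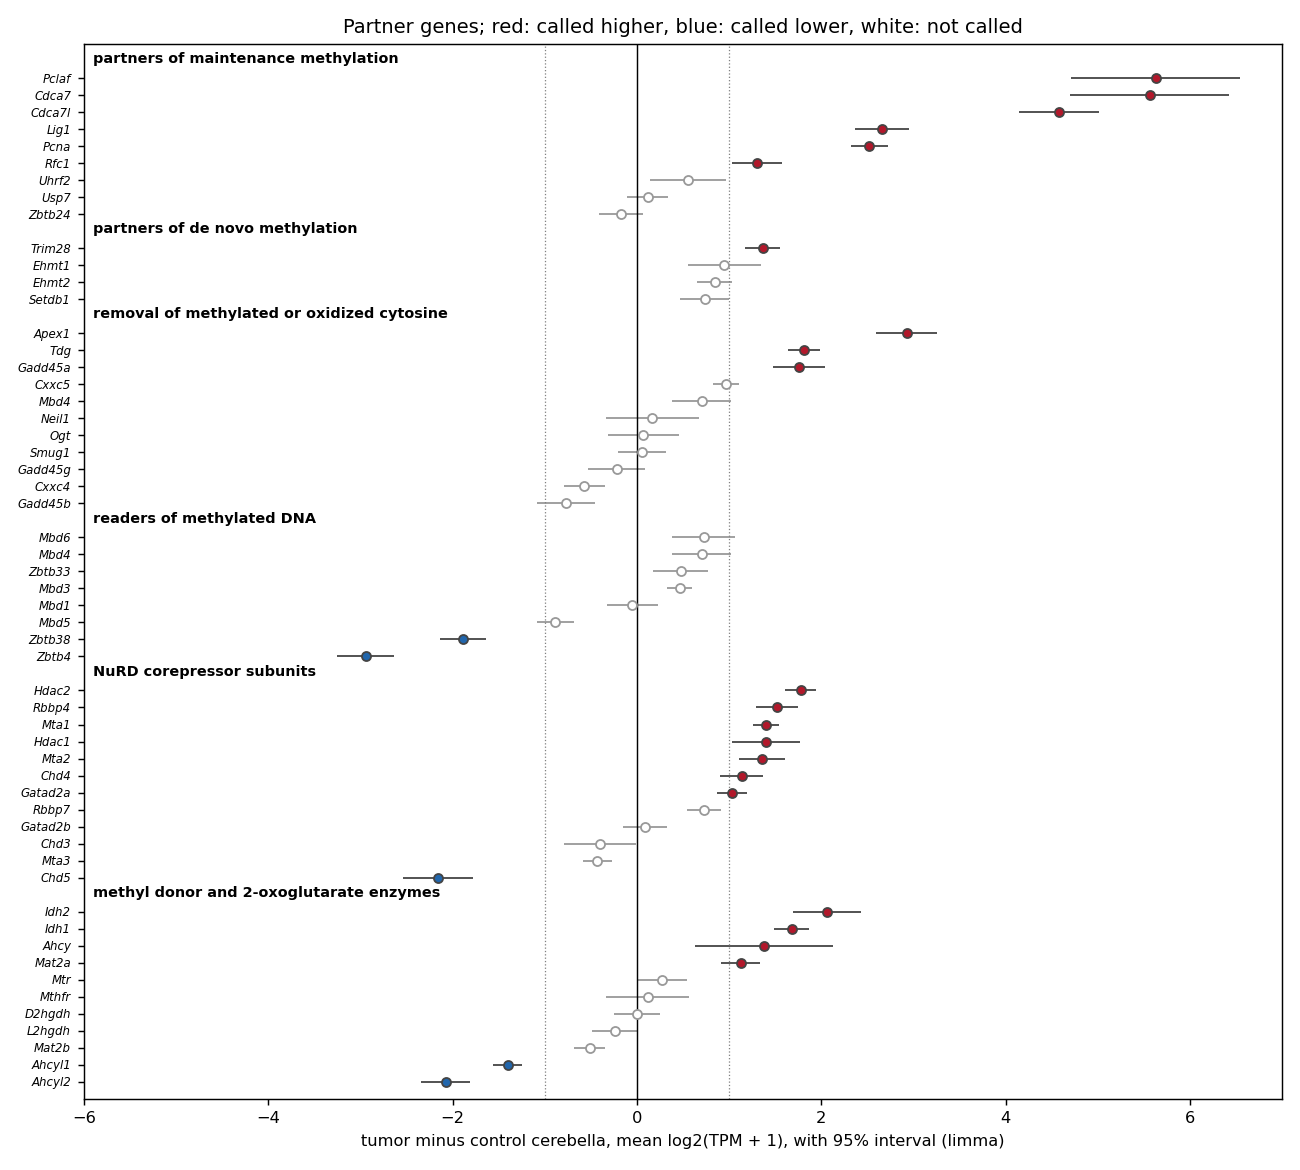
Difference between tumors and controls on the log2(TPM + 1) scale (x axis) with limma's 95% interval for the tested partner genes (y axis, 1 reader not drawn), grouped by role. Red points were called higher and blue points lower, and white points were not called. Of the 9 maintenance partners 6 are red, while 2 genes of the reader list are blue and none is red.

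Finally, the profiles over the 12 samples were compared with those of 16497 other genes, by the root mean square difference of log2(TPM + 1) after removal of each gene's mean, as a description across samples that share groups. The gene nearest to Uhrf1 was Cdca7 (0.11), followed by Aurkb, a mitotic kinase, and Mex3a (both 0.16). Nearest to Hells were Cenpm, a centromere protein (0.21), Cdt1, the replication licensing factor (0.22), and Tshz2 (0.23). Dnmt1 was nearest to Srsf6, a splicing factor (0.07), Senp1 (0.08) and Nup155 (0.09). The measure is not scaled to the range of a gene, so distances of genes that vary by different amounts are not comparable. Dnmt3b was nearest to Qtrt1 (0.14), Raver1 and Mapk7 (both 0.15), and Tet3 to Fgd6, Brpf1 (both 0.08) and Aco1 (0.10). Nearest to Dnmt3a were Slc11a2 (0.06), Repin1 and Gripap1 (both 0.07), and to Tet1 9130221H12Rik, Atad2b (both 0.09) and Ccnt2 (0.10). Nearest to Mbd2 were Tm9sf2, Bmp2k (both 0.07) and Fgd5 (0.08). Within the 9, the closest pair was Dnmt1 and Tet3 (0.18), then Dnmt1 and Dnmt3b (0.21). Many other genes were nearer, with Tet3 at rank 227 from Dnmt1 and Dnmt1 at rank 242 from Tet3. Dnmt3b was at rank 376 from Dnmt1, and Dnmt1 at rank 57 from Dnmt3b.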

How the data were processed

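RNA of 12 samples was sequenced after poly(A) selection. Per the labels and the study's methods, transcript abundance was estimated by the authors in Salmon 0.8.1 on the mm10 knownGene models (TxDb 3.4.0) and collapsed to gene level by tximport 1.20. The deposited values are TPM for 24091 genes, and each sample sums to between 999793 and 999876. TPM are relative to the sample's total, so a large rise of some genes lowers the rest. No file held counts, the depth is unknown, and the authors' own count test was not repeated.

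TPM were transformed to log2(TPM + 1), where 1 TPM is the pseudocount, which understates changes of low genes. A gene entered a fit when 3 or more of the compared samples reached 1 TPM. Fits used limma 3.58.1 (trended eBayes, R 4.3.3), and p-values were adjusted by Benjamini and Hochberg's method across every gene in the fit. Each fit used only the groups compared. Called genes had to pass 0.01 for the adjusted p and 1 for the absolute log2 difference, the thresholds of the study. Shares were tested by exact permutation in scipy 1.17.1 (Python 3.11.15). The code was tested on simulated data. Alternatives were another pseudocount (0.1), other filters, scalings, thresholds, control genotypes, a pairing block and leaving out each sample.

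The 9 genes and the partner and marker lists were chosen with earlier results of these data known. The text names all 9, per partner list the 2 called genes with the largest change between tumors and controls whose groups do not overlap, and per gene the 3 nearest profiles, which for Tet2 are not reported here. Other partners are named only to complete a count, chosen after their values were seen. Replicates are separate mice. Tumor and adjacent samples share a mouse number in their titles, and the deviations of same-mouse samples from their group means correlated at 0.25, 0.18 and 0.15 across genes, against -0.16 to 0.02 for other pairs. Start site sequences are RefSeq (GRCm38.p6), the build of mm10.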

Additional observations from a re-analysis of the deposited data

Results flagged for a closer look

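Among 12 sets of control values checked for a sample far from the others, 2 held one, where chance gives about 1 in 20. Uhrf1 was at 5.51 TPM in the Brca2 mutant control GB512, and the other 5 controls lay between 0.849 and 1.21 TPM. The gap was 0.923 of the whole range, above Dixon's limit of 0.625 for 6 samples. Without GB512 the tumor to control ratio of Uhrf1 was 105 instead of 60.1. Mki67 was at 5.63 TPM in the same sample, and its part in the Uhrf1 value was not tested. Tet1 made up 19.8% of the summed Tet TPM in the Trp53 mutant control GB520, and 17.3 to 18.2% in the others, a gap of 0.661 of the range.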

How the results depend on the processing

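The 5 calls of tumors against controls kept their direction and their side of the thresholds in all 18 alternatives. Of 580 recomputed log2 differences of the 9 genes over 4 comparisons, 548 were on the same side, 14 passed a threshold they had missed, 0 lost a call and 18 changed sign, none of them called. The median of all genes was -0.11 in tumors against controls and -0.14 in tumors against adjacent cerebella, and -0.01 and 0.03 with median-of-ratios scaling. With median-of-ratios scaling and quantile normalization, Tet1 in tumors against controls was at 0.0057 and 0.12, Tet2 in tumors against adjacent cerebella at 0.062 and 0.16, and Mbd2 between the control genotypes at 0.056 and 0.048. With Brca2 mutant controls alone, Tet1 was at 0.057 in tumors and 0.045 in adjacent cerebella, and with GB370 as the sole adjacent sample Tet3 was at -0.026 against controls. Leaving out 1 sample at a time, Tet2 in tumors against adjacent cerebella ranged from -0.22 to 0.093 and Tet1 there from -0.20 to 0.19, Tet1 and Mbd2 in adjacent cerebella against controls from -0.29 to 0.10 and from -0.083 to 0.015, and Mbd2 and Hells between the control genotypes from -0.13 to 0.054 and from -0.18 to 0.28. The cause of these reversals was not tested.

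Members called higher in tumors against adjacent cerebella numbered 0, but 2 with median-of-ratios scaling, 4 with quantile normalization, 2 with all 4 groups in a single fit (Uhrf1 and Hells), 5 with an adjusted p under 0.05 and no fold minimum, 1 with GB370 as the sole adjacent sample (Uhrf1, an alternative chosen after seeing the data, in which the lone sample is assumed to vary like the tumors), and 0 to 1 without single samples. With the replicate block for mice the count was 0, and the pairing changed no call of the 9 genes. Among partner genes the block removed the call of Lig1 and added Ahcy, Hdac1 and Rbbp4, all higher. Adjacent cerebella against controls gave 3 at the lenient threshold (Dnmt3b, Uhrf1 and Hells) and 0 to 2 without single samples, and Mbd2 was the 1 member called lower in tumors against controls at that threshold. The cause was not tested, beyond the fold minimum itself. The shares kept their sign in all 72 alternatives, although those of the adjacent cerebella moved with single samples, from 1.501 to 8.85 points for Dnmt1, 1.95 to 4.73 for Dnmt3b and -5.74 to -2.73 for Tet1. Leave-one-out tests of shares cannot give a p below 0.0357 with 3 against 5 samples or 0.0714 with 2 against 6, so they are values without a test. Without read counts, no depth limit can be given for low genes such as Dnmt3b.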
